A study of Mus musculus with 6 samples.

Results

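The 32 genes described here code for the liver's synthesis of fatty acids and triglycerides: the enzymes that make acetyl-CoA, NADPH, malonyl-CoA and palmitate, the desaturases and elongases, the enzymes that esterify fatty acids to glycerol, and the regulators of these steps. They were taken from a list of symbols, each matched to 1 Ensembl gene ID, among 37991 gene IDs in all. Transcripts were counted in 6 livers of the FVB strain at 84 days of age: 3 were Ing5 +/+ (WT), and 3 were Ing5 MommeD48/+ (Het). Ing5 is a subunit of histone acetyltransferase complexes, and MommeD48 is an allele from a mouse screen for modifiers of transgene silencing. The comparison asks what a single copy of this allele does to liver transcripts. The Het livers carry 1 allele of a single line, its molecular nature is not given in the sources used here, and no other allele or agent is named for either group. The sex of the mice, their feeding before dissection and the hour of dissection are not given in the sources used here.

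Library totals were 19840541 to 22041117 counts, so 3 counts, the limit that a count of 0 allows by counting error alone, equal 0.136 to 0.151 CPM (the unit for counts scaled to a common library size). Levels are given in CPM of the TMM-scaled library size. Means are given ± SD (n = 3), and each log2 fold change is Het relative to WT, from an edgeR fit of the 12631 genes that passed a filter on low counts. Whether the numbered livers are from different mice is not said in the labels; the p-values therefore reflect the spread of these samples alone, which may be technical. Ing5 itself had 182, 228 and 191 counts in WT replicates 1 to 3 and 193, 217 and 180 counts in Het replicates 1 to 3, a log2 fold change of -0.047 (SE 0.11, 95% interval -0.30 to 0.20). The 10 hepatocyte markers summed to 83273 to 103796 CPM in WT and 89372 to 106881 CPM in Het livers. Adipocytes also express the lipogenic genes. Of 10 adipocyte markers the defining genes Adipoq, Lep and Plin1 were each at 0 to 0.0963 CPM in every liver, and the list's sum of 3530.3 to 6626 CPM in WT and 5711 to 6265 CPM in Het livers was nearly all Car3, which liver expresses as well. Cidec, at 0.966 to 4.25 CPM, and Fabp4, at 2.81 to 7.70 CPM, were lowest in Het replicate 2 and highest in Het replicate 1. Whether a difference reflects fewer cells of a type or less RNA per cell cannot be told apart in whole tissue.

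In the liver, carbohydrate is turned into fat by a cytosolic route. Citrate leaves the mitochondrion and is cleaved to acetyl-CoA, acetyl-CoA carboxylase makes malonyl-CoA, and fatty acid synthase joins these units to palmitate with NADPH. Palmitate is elongated and desaturated, chiefly to oleate, and then esterified through phosphatidate and diacylglycerol to triglyceride. Insulin acts on the route through the transcription factor SREBP1, encoded by Srebf1, glucose through ChREBP, encoded by Mlxipl, and oxysterols through LXR alpha, encoded by Nr1h3. The route is known to be induced by a carbohydrate meal and repressed by fasting.

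The genes from acetyl-CoA supply to palmitate all had lower means in Het livers. Their log2 fold changes ran from -0.57 for Acacb to -0.049 for Slc25a1, and Acss2 and Slc25a1 turned above 0 without Het replicate 2. The transcripts of Srebf1, Mlxipl and Nr1h3 had near-equal means, with log2 fold changes of 0.051, 0.030 and 0.056, of a size like that of Slc25a1. Elovl2, an elongase of polyunsaturated fatty acids, had a higher mean. Of the 32 genes 31 passed the filter on low counts. The exception was Pnpla5, a lipase-family gene, with 1 count in WT replicate 2 and 0 counts in the other libraries. By edgeR's quasi-likelihood test, with p-values adjusted by Benjamini-Hochberg over all genes, 0 of the 31 reached the 0.05 threshold (adjusted p = 0.9998 for each), as did 0.00% of the 12631 genes tested. DESeq2 and limma-voom also called 0 of them, with smallest adjusted p values of 0.304 and 0.999. At an unadjusted p under 0.05 in the edgeR fit, 5 were lower in Het livers (Elovl6, Me1, Acaca, Acacb and Pnpla3), where 2.21% of all genes were, and 1 was higher (Elovl2), where 2.12% were (both directions: 4.33%). The count of lower genes was 10 without Het replicate 1, where the background was 3.92%, and 3 without WT replicate 1, where it was 1.13%. In all, 19 of 31 genes (61.3%) had a log2 fold change below 0, against 49.7% of all genes. Their median log2 fold change was -0.13, and that of all genes was 0.000881.

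**Figure D1:**
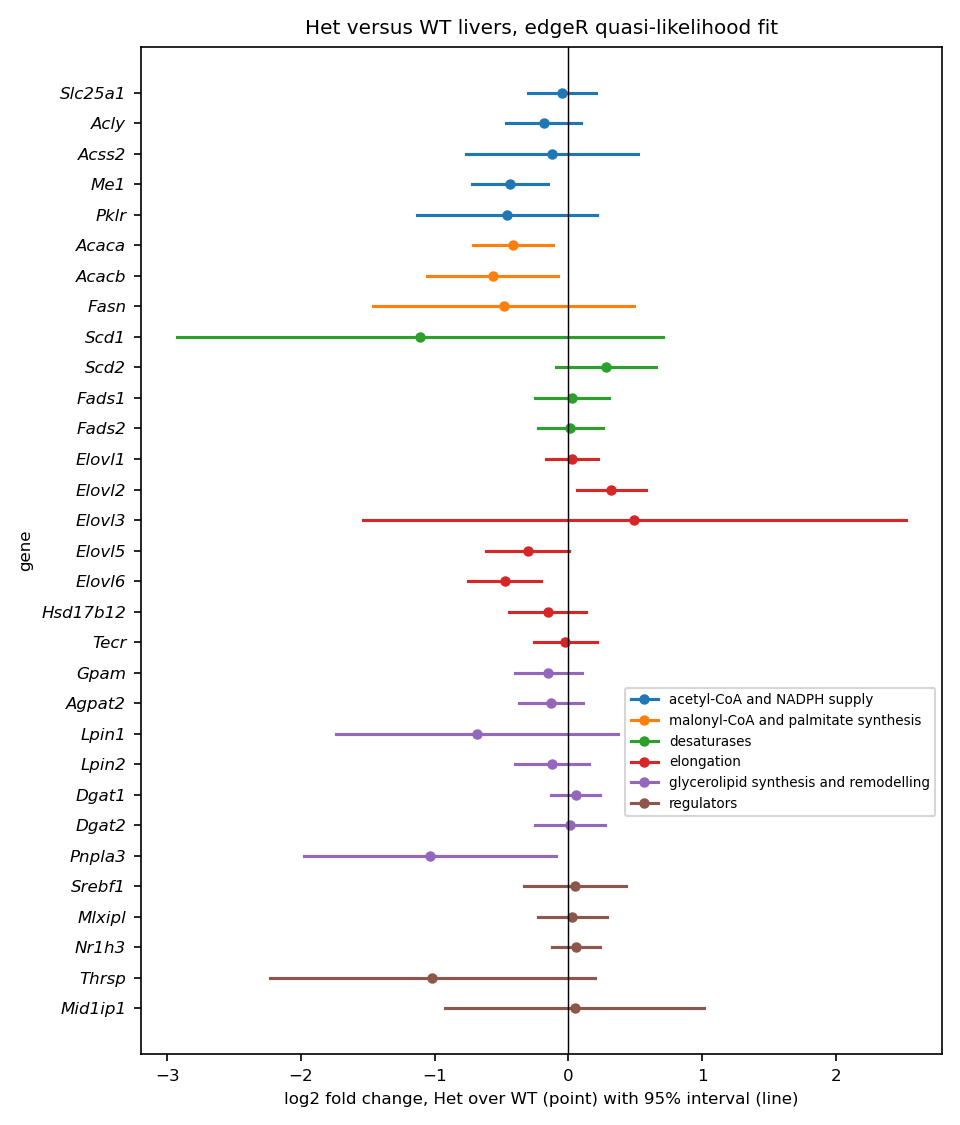
Points give the log2 fold change of Het over WT for the 31 genes tested and lines its 95% interval, coloured by the step each gene serves. The intervals of Me1, Acaca, Acacb, Elovl6 and Pnpla3 lie below 0 and that of Elovl2 above 0, and those of Scd1 and Elovl3 are the widest.

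The 5 genes that supply acetyl-CoA, NADPH and pyruvate all had lower Het means, and their median log2 fold change was -0.19. Without Het replicate 2, 3 of the 5 were below 0 with a median of -0.058, and without Het replicate 1 all 5 were, with a median of -0.43. Me1 (ENSMUSG00000032418) encodes the cytosolic malic enzyme, which makes NADPH for fatty acid synthesis. It had 284, 220.4 and 299.7 CPM in WT replicates 1 to 3 and 194, 185 and 215 CPM in Het replicates 1 to 3. The 3 Het values lay below all 3 WT values, the highest of them, Het replicate 3, just under WT replicate 2. This gave a log2 fold change of -0.44 (SE 0.13, 95% interval -0.72 to -0.15), with an unadjusted p of 0.00670 in the edgeR fit. Of the 50-base stretches of Me1 transcripts 28.3% also occur in other genes, among them the pseudogene Gm7049, so its counts depend on how shared reads were assigned. Pklr, the liver pyruvate kinase and a standard ChREBP target, had 229, 175 and 239 CPM in WT replicates 1 to 3 and 216, 102 and 150.2 CPM in Het replicates 1 to 3. Het replicate 1 lay within the WT range, and the other 2 Het livers lay below it. The log2 fold change of -0.46 had an interval from -1.13 to 0.21 and depended on the liver: it was -0.77 without Het replicate 1 and -0.23 without Het replicate 2. Acly, the ATP citrate lyase that makes cytosolic acetyl-CoA, had 144, 134 and 152 CPM in WT replicates 1 to 3 and 145, 103 and 130.3 CPM in Het replicates 1 to 3. Het replicates 2 and 3 lay below all WT livers, and Het replicate 1 lay among them. Acss2, which makes acetyl-CoA from acetate, ranged from 42.4 CPM in Het replicate 2 to 89.5 CPM in Het replicate 1, so that the Het livers enclosed the WT range of 64.02 to 77.8 CPM. Slc25a1, the mitochondrial citrate carrier, ranged from 131 to 171 CPM and had its extremes in the same 2 Het livers. Acss2 exons share 395 bases with exons of Gss on the opposite strand, and the counting strand is not given in the sources used here, so part of its reads may belong to Gss.

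The 3 genes for malonyl-CoA and palmitate synthesis also had lower Het means (median log2 fold change -0.48) and kept that direction in each of 6 fits that left out 1 liver, with a median of -0.30 without Het replicate 2. Acaca (ENSMUSG00000020532), the cytosolic acetyl-CoA carboxylase that commits carbon to fat, had 93.0, 93.4 and 76.5 CPM in WT replicates 1 to 3 and 77.7, 55.1 and 64.4 CPM in Het replicates 1 to 3. Het replicate 1 lay above WT replicate 3, so the groups overlapped by a single liver on each side. Het relative to WT, its log2 fold change was -0.42 (SE 0.13, 95% interval -0.71 to -0.12), with an unadjusted p of 0.0116 in the edgeR fit. Other genes share 30.4% of the 50-base stretches of Acaca transcripts, which makes its counts uncertain in the same way. Acacb (ENSMUSG00000042010), the carboxylase at the mitochondrial surface whose malonyl-CoA restrains fatty acid oxidation, had 28.5, 18.2 and 24.2 CPM in WT replicates 1 to 3 and 16.7, 12.1 and 19.1 CPM in Het replicates 1 to 3. Het replicate 3 lay above WT replicate 2, and the other 2 Het livers lay below all WT livers. Het relative to WT, its log2 fold change was -0.57 (SE 0.21, 95% interval -1.06 to -0.075), with an unadjusted p of 0.0294 in the edgeR fit. Fasn (ENSMUSG00000025153), fatty acid synthase, had 162, 183 and 253 CPM in WT replicates 1 to 3 and 208, 79.3 and 141 CPM in Het replicates 1 to 3. Het replicate 1 lay above 2 of the 3 WT livers, while Het replicate 2 had the lowest value of all. Fasn had a log2 fold change of -0.48 (SE 0.39, 95% interval -1.46 to 0.49), and with 1 liver left out it lay between -0.86 without Het replicate 1 and -0.19 without Het replicate 2.

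Of the 4 desaturases only Scd1 had a log2 fold change below 0, a count of 1 that was 3 without WT replicate 2 or without Het replicate 1, and 2 without WT replicate 3. Scd1 (ENSMUSG00000037071), which turns stearate and palmitate into oleate and palmitoleate, supplied 22.5% to 32.2% of the counts of all 32 genes in WT livers, 25.7% in Het replicate 1, 7.03% in Het replicate 2 and 12.0% in Het replicate 3. It had 2938.5, 1548 and 2293 CPM in WT replicates 1 to 3 and 1995, 372 and 776 CPM in Het replicates 1 to 3. Het replicate 1 lay inside the WT range, and the other 2 Het livers lay below it, Het replicate 2 at 7.91-fold below WT replicate 1. With this spread the log2 fold change of -1.11 had a 95% interval from -2.92 to 0.71. Its paralog Scd2, the form prominent in brain and in young tissue, had 4.67, 4.13 and 4.01 CPM in WT replicates 1 to 3 and 4.59, 6.30 and 4.68 CPM in Het replicates 1 to 3, so that Het replicate 2, lowest for Scd1, was highest for Scd2. Scd1 and Scd2 transcripts share 4.56% and 3.97% of their 50-base stretches with other genes, among them each other, so a small part of the reads is of uncertain origin. Fads1 and Fads2, the delta-5 and delta-6 desaturases of polyunsaturated fatty acids, had log2 fold changes of 0.028 and 0.013. Fads1 had 559.9 ± 51.1 CPM in the WT group and 571 ± 66.5 CPM in the Het group. Fads2 had 273 ± 14.1 CPM in the WT group and 275 ± 31.3 CPM in the Het group. The 95% intervals of their folds were 0.841 to 1.24 and 0.853 to 1.19.

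**Figure D2:**
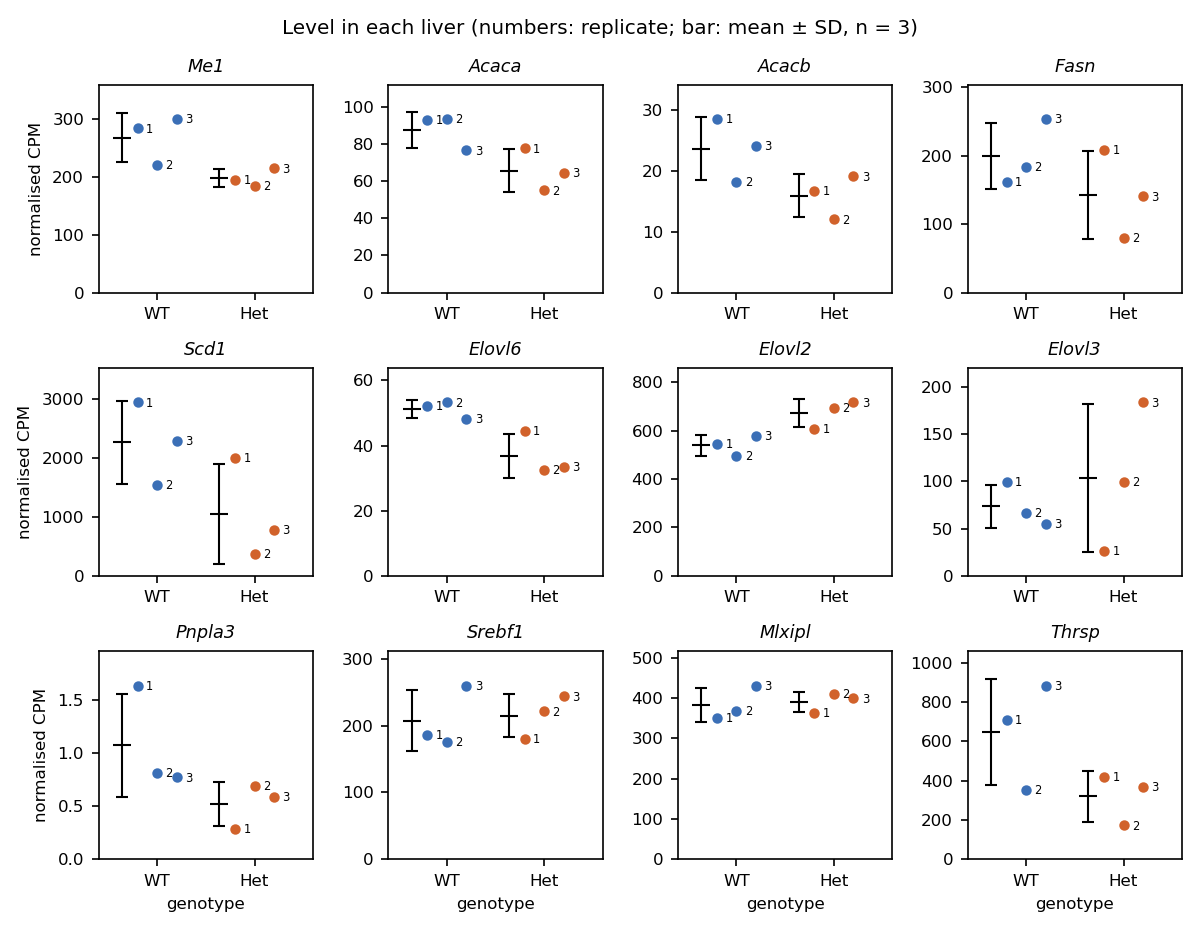
Each point is the normalised CPM of 1 liver, numbered by replicate, with the mean ± SD of the 3 livers beside it, for 12 of the genes. The Het points lie below all WT points for Me1, Elovl6 and Pnpla3 and above them for Elovl2, and Het replicate 1 lies with the WT livers for Fasn and Scd1.

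Elongases lengthen fatty acids by a pair of carbons a cycle, and the family members had values in opposite directions. Elovl6 (ENSMUSG00000041220), which turns palmitate into stearate and is a classical SREBP1 target, had 52.2, 53.3 and 48.2 CPM in WT replicates 1 to 3 and 44.6, 32.5 and 33.4 CPM in Het replicates 1 to 3. All 3 Het values lay below all WT values, and Het replicate 1 was the nearest to them. This gave a log2 fold change of -0.48 (SE 0.12, 95% interval -0.75 to -0.21), with an unadjusted p of 0.00304 in the edgeR fit, the smallest of the 31 genes. Without Het replicate 1 it was -0.64 (edgeR with Benjamini-Hochberg adjustment, adjusted p = 0.0673). Elovl2 (ENSMUSG00000021364), which elongates polyunsaturated fatty acids on the way to docosahexaenoate, had 546, 494 and 577 CPM in WT replicates 1 to 3 and 606, 695 and 717 CPM in Het replicates 1 to 3. All 3 Het values lay above all WT values. This gave a log2 fold change of 0.32 (SE 0.12, 95% interval 0.061 to 0.58), with an unadjusted p of 0.0206 in the edgeR fit. Elovl6 and Elovl2 are 2 of the 4 genes whose groups did not overlap. The others were Me1 and Pnpla3, making 3 lower (all genes: 4.28%) and 1 higher (all genes: 4.72%; both directions: 8.99%).

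Elovl5, an elongase of both monounsaturated and polyunsaturated fatty acids, had 414, 347 and 414 CPM in WT replicates 1 to 3 and 358, 260.3 and 333 CPM in Het replicates 1 to 3. Its log2 fold change was -0.30 (SE 0.14, 95% interval -0.61 to 0.0058), and 2 of 3 Het livers lay below all WT livers. Elovl3, an elongase of saturated and monounsaturated very long chains that is known to follow the clock and sex hormones in liver, had 99.0, 66.5 and 54.7 CPM in WT replicates 1 to 3 and 26.8, 99.7 and 183 CPM in Het replicates 1 to 3. The Het livers held both the lowest and the highest value of the 6, a 6.84-fold range. The log2 fold change of 0.49 (SE 0.76) turned to -0.21 without Het replicate 3. Elovl1, which makes very long saturated chains, and the shared enzymes of the cycle, Hsd17b12 (ketoacyl reductase) and Tecr (enoyl reductase), had log2 fold changes of 0.027, -0.16 and -0.022. For Hsd17b12 the values of Het replicates 2 and 3, 132 and 147 CPM, lay below the WT range of 165 to 181 CPM, and Het replicate 1 lay above it at 188 CPM.

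The promoters of 4 of these genes are shown because they belong to the genes with the clearest differences in each direction (Elovl6, Me1 and Elovl2) and to the central enzyme of the route (Fasn). They are the 250 bases before the first annotated transcript start of each gene in the RefSeq table of GRCm38.p6, 5′ to 3′ on the gene's strand, at chr3:129532136-129532385 (plus strand) for Elovl6, chr9:86695915-86696164 (minus strand) for Me1, chr13:41220404-41220653 (minus strand) for Elovl2 and chr11:120824548-120824797 (minus strand) for Fasn. Capitals mark the NF-Y box CCAAT and the GC box GGGCGG on either strand.
Elovl6: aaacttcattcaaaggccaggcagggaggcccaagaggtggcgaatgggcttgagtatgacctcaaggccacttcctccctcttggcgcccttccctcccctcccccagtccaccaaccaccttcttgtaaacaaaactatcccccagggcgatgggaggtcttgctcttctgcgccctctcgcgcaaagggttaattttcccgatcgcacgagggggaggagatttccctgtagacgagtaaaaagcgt
Me1: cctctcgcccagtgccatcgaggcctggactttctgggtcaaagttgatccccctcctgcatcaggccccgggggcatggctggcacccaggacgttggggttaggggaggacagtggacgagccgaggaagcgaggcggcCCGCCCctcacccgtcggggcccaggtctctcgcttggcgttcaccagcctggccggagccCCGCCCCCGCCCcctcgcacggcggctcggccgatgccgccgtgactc
Elovl2: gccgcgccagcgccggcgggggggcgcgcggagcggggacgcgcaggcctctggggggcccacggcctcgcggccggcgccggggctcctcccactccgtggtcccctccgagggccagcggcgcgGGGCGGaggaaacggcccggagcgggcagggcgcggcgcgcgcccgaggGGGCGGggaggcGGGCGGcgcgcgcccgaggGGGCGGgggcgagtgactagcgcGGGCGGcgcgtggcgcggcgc
Fasn: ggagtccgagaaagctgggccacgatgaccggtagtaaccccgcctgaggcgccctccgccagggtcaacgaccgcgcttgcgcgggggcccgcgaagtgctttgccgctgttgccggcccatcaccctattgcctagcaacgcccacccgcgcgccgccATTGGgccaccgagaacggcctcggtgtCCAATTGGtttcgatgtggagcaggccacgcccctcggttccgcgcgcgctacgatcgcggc
The Fasn window holds 3 NF-Y boxes, of which the last 2 overlap, the Me1 window 3 GC boxes and the Elovl2 window 5 GC boxes. The Elovl6 window holds none of the motifs searched. Over all 37 promoters listed for 26 of the 32 genes, 18 (48.6%) held CCAAT, against 33.8% of the 32851 promoters in the table, and 20 (54.1%) held GGGCGG, against 32.7%. The E-box CACGTG was in 5 (13.5%, against 6.02%), and the sterol regulatory element in the form TCACNCCAC was in 1, a promoter of Mlxipl (2.70%, against 1.05%). Promoters of 1 gene can overlap, and a match describes these letters only.

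Of the 7 tested genes for glycerolipid synthesis 5 had log2 fold changes below 0, with a median of -0.13. That median was -0.058 without Het replicate 2 and -0.23 without Het replicate 3. Gpam, the mitochondrial acyltransferase that attaches the first fatty acid to glycerol phosphate, had 226, 217 and 216 CPM in WT replicates 1 to 3 and 205, 167 and 221 CPM in Het replicates 1 to 3. Het replicate 2 was the lowest liver, and the other 2 Het livers lay near the WT values. Agpat2, which attaches the second fatty acid, had a log2 fold change of -0.13, with 98.7 to 125 CPM in Het and 112 to 130.4 CPM in WT livers. Lpin1, the phosphatidate phosphatase that is known to be induced by fasting and glucocorticoids, had 140.3, 106 and 53.6 CPM in WT replicates 1 to 3 and 78.9, 45.8 and 61.7 CPM in Het replicates 1 to 3. The WT livers alone spanned 53.6 to 140.3 CPM, so the log2 fold change of -0.69 (SE 0.41) lay between -0.99 without WT replicate 3 and -0.36 without WT replicate 1 when 1 liver was left out. Its paralog Lpin2 had 296 ± 47.6 CPM in the WT group and 271 ± 5.27 CPM in the Het group. Dgat2 and Dgat1, which add the last fatty acid, had log2 fold changes of 0.013 and 0.055. Dgat2 had 562 ± 66.6 CPM in the WT group and 566 ± 17.8 CPM in the Het group. Dgat1 had 16.5 ± 0.302 CPM in the WT group and 17.2 ± 0.693 CPM in the Het group, the narrowest range of the 31 genes at 1.10-fold over the 6 livers.

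Pnpla3 (ENSMUSG00000041653), a lipid droplet protein of the patatin family that SREBP1 and ChREBP are known to induce, was scarce. It had 34, 18 and 15 counts in WT replicates 1 to 3 and 6, 15 and 12 counts in Het replicates 1 to 3, which correspond to 1.64, 0.817 and 0.771 CPM in the WT livers and 0.287, 0.690 and 0.585 CPM in the Het livers. All Het values lay below all WT values, and at 6 to 34 counts per library the counting error is large. Its log2 fold change was -1.03 (SE 0.42, 95% interval -1.98 to -0.094), with an unadjusted p of 0.0343 in the edgeR fit, and leaving out 1 liver moved it between -1.29 without Het replicate 2 and -0.61 without WT replicate 1.

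The transcription factors of the route had near-equal means. Srebf1 (ENSMUSG00000020538) had 186, 175 and 259.7 CPM in WT replicates 1 to 3 and 179, 221 and 243.5 CPM in Het replicates 1 to 3. The groups overlapped over nearly their whole range, and Het replicate 2, with the lowest Fasn and Scd1, lay above 2 of the 3 WT livers. Its log2 fold change was 0.051 (SE 0.17, 95% interval -0.33 to 0.43). Mlxipl (ENSMUSG00000005373) had 350.3, 368 and 431 CPM in WT replicates 1 to 3 and 363, 411 and 399.7 CPM in Het replicates 1 to 3, a log2 fold change of 0.030 (SE 0.11, 95% interval -0.23 to 0.29). Nr1h3 (ENSMUSG00000002108) had 73.8, 74.9 and 82.3 CPM in WT replicates 1 to 3 and 79.0, 79.8 and 81.4 CPM in Het replicates 1 to 3, a log2 fold change of 0.056 (SE 0.079, 95% interval -0.12 to 0.23). The intervals of these 3 genes allow a fold between 0.795 and 1.35 for Srebf1, between 0.855 and 1.22 for Mlxipl and between 0.920 and 1.17 for Nr1h3. The counts do not separate the Srebf1 isoforms or show the processing of its protein, and 109 bases of its exons overlap Rai1 on the opposite strand.

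Thrsp (Spot 14) and Mid1ip1 (Spot 14-related) encode a pair of related proteins, of which Mid1ip1 is known to promote the assembly of acetyl-CoA carboxylase into active filaments. Thrsp (ENSMUSG00000035686) had 708, 352 and 884 CPM in WT replicates 1 to 3 and 419, 172 and 369 CPM in Het replicates 1 to 3. WT replicate 2 lay among the Het livers, the other 2 WT livers stood above all Het livers, and Het replicate 2 was the lowest. Its log2 fold change was -1.02 (SE 0.48, 95% interval -2.23 to 0.19), with an unadjusted p of 0.0841 in the edgeR fit. Mid1ip1 had 29.9, 29.0 and 62.8 CPM in WT replicates 1 to 3 and 52.0, 32.3 and 41.3 CPM in Het replicates 1 to 3. WT replicate 3 had more than the other 2 WT livers, as for Thrsp, but the Het livers lay inside the WT range, and the log2 fold change was 0.047 (SE 0.38).

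The livers differed among themselves within a genotype. Het replicate 2 had the lowest value of the 6 livers for 18 of the 31 genes (58.1%), where it was lowest for 17.3% of all genes tested. Het replicate 2 also had the highest centred mean of the 6 livers for 3 lists of 8 markers each. For macrophages and Kupffer cells it was 0.26, 0.30 and -0.66 in the WT livers and -0.030, 0.54 and -0.42 in the Het livers. For endothelial cells it was -0.065, -0.13 and 0.17 in the WT livers and -0.063, 0.18 and -0.10 in the Het livers, so that WT replicate 3 was close to it. For stellate cells it was 0.048, -0.26 and 0.062 in the WT livers and 0.012, 0.22 and -0.076 in the Het livers. The summed levels of these lists were 109.8 to 199.8, 132 to 178 and 183 to 258 CPM in WT livers and 124 to 217, 135 to 172 and 229.9 to 293 CPM in Het livers, and their part in the result was not tested. For the 4 adipocyte markers tested the centred mean was -0.14, 0.12 and -0.041 in the WT livers. In the Het livers it was 0.58, -0.35 and -0.18, lowest in Het replicate 2, and its part was not tested. WT replicate 3 had the highest value for 13 of the 31 genes (41.9%), against 21.7% of all genes. Het replicate 1 was lowest for 2 and highest for 6 of the 31. The mean over the 31 genes of log2 CPM, each centred on its mean of the 6 livers, was 0.20, -0.020 and 0.17 in the WT livers and -0.011, -0.30 and -0.037 in the Het livers. Het replicates 1 and 3 thus lay beside WT replicate 2, and the WT and Het ranges overlapped. The range over the 3 Het livers exceeded the difference between genotypes for 26 of 31 genes, and the range over the 3 WT livers for 20. The median log2 range was 0.45 within Het and 0.29 within WT livers, against 0.24 and 0.29 over all genes. Without Het replicate 2 the median log2 fold change of the genes was -0.0426 with 17 of 31 below 0, and without Het replicate 1 it was -0.17 with 23 below 0.

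**Figure D3:**
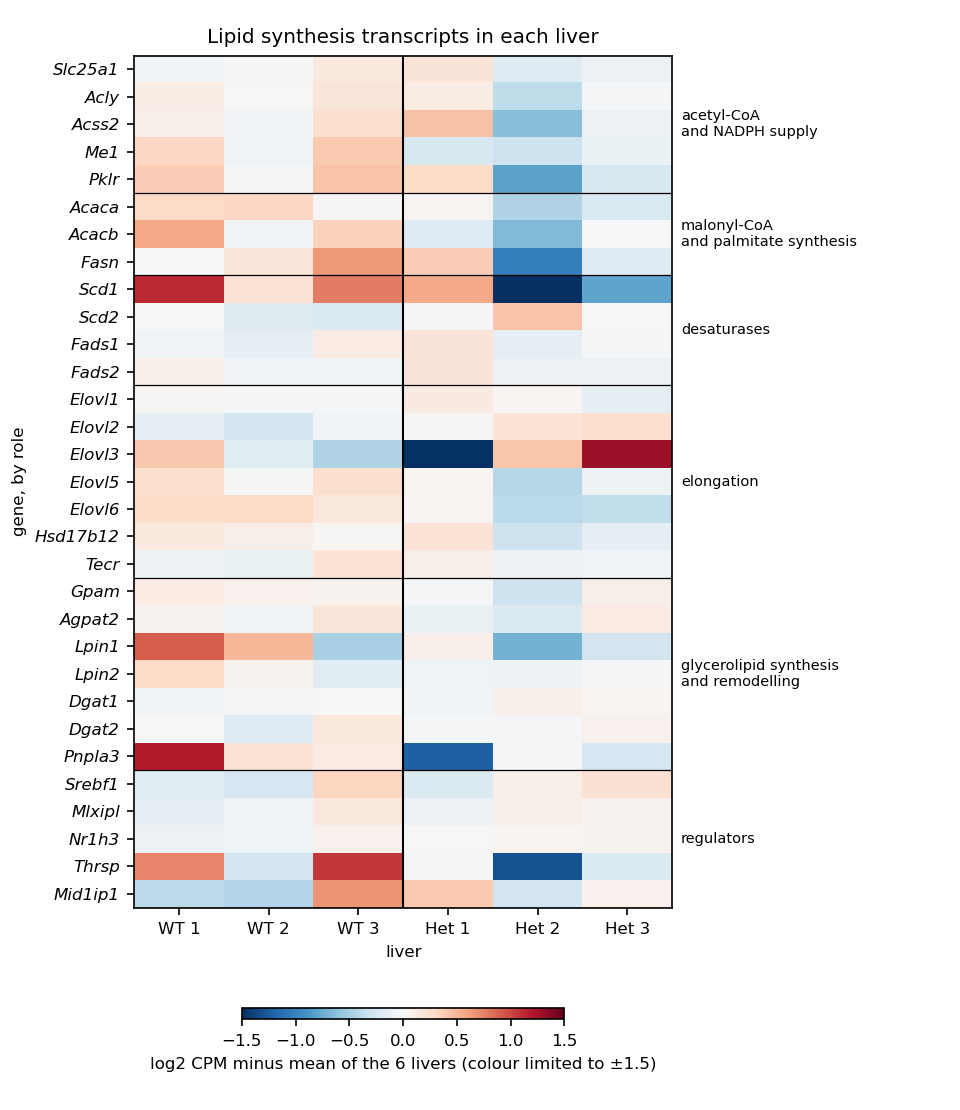
Colours give log2 CPM minus the mean of the 6 livers for the 31 genes tested (rows, by role) in each liver (columns), with the colour limited at 1.5 in either direction. Het replicate 2 is the lowest liver for 18 of the 31 genes, among them Fasn, Scd1, Pklr and Thrsp, while Mlxipl and Nr1h3 are pale in all 6 livers.

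Genes that feed glucose and NADPH into the route, a list of 22 others, mostly had values in the direction of the core enzymes. All 22 were tested and 20 had a log2 fold change below 0, with a median of -0.11. None was called by edgeR with adjustment over all genes (0 genes), and 4 were lower at an unadjusted p under 0.05 (all genes: 2.21%). Khk, fructokinase, had 436, 285 and 395 CPM in the WT livers and 293, 225.5 and 269 CPM in the Het livers, a log2 fold change of -0.50 (SE 0.16). Tkfc, which phosphorylates glyceraldehyde from fructose, had 222, 218 and 233 CPM in the WT livers and 212, 119 and 139 CPM in the Het livers, a log2 fold change of -0.52 (SE 0.19). For Khk only Het replicate 1 overlapped the WT livers, and for Tkfc no Het liver did. The other 2 were Pgd and Tkt, enzymes of the pentose phosphate pathway, with log2 fold changes of -0.41 (SE 0.15) and -0.25 (SE 0.11). The count of 20 genes below 0 was 16 without Het replicate 2. The median was -0.20 without WT replicate 2. The count of 4 genes lower at an unadjusted p under 0.05 was 0 without WT replicate 1 (all genes: 1.13%) or Het replicate 2 (1.53%). The count was 1 without WT replicate 3 (5.44%) or Het replicate 3 (1.75%). It was 5 without WT replicate 2 (2.23%) and 6 without Het replicate 1 (3.92%).

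Among 25 genes that control SREBP1 and ChREBP, 12 had values below and 13 above 0, with a median of 0.0159. Rxrb, a partner receptor of LXR, had an unadjusted p of 0.0350 in the edgeR fit and a log2 fold change of 0.19 (SE 0.078). Of 20 other genes of acyl-CoA activation, elongation and desaturation 15 were tested, 10 of them below 0, and none had an unadjusted p under 0.05 (edgeR; 0 called by adjusted p). Of 22 other glycerolipid genes 20 were tested, 16 below 0 with a median of -0.0435, and Mogat1, a monoacylglycerol acyltransferase gene, had 2.503, 1.497 and 1.645 CPM in the WT livers and 1.147, 0.368 and 0.683 CPM in the Het livers. These are 52, 33 and 32 counts in WT replicates 1 to 3 and 24, 8 and 14 counts in Het replicates 1 to 3, so the counting error is large. Its log2 fold change was -1.36 (SE 0.38), with an unadjusted p of 0.00522 in the edgeR fit. The groups did not overlap, as for 4.28% of all genes in that direction. The count of 16 was 11 without Het replicate 2 and 12 to 15 without any other liver, and the median lay between -0.0079 without Het replicate 2 and -0.11 without Het replicate 1. Of 21 genes of lipid droplets, lipolysis and export 20 were tested, 12 below 0, and none had an unadjusted p under 0.05 (edgeR; 0 called by adjusted p). Counts of genes below 0 in the lipid droplet list were 8 when Het replicate 3 was left out and 17 when Het replicate 1 was.

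Other liver programmes also separated single livers. Sterol synthesis genes, targets of SREBP2, had centred means of -0.12, 0.44 and 0.14 in the WT livers and 0.78, -1.05 and -0.20 in the Het livers. Het replicate 2 was the lowest and Het replicate 1 the highest liver, and the count below 0, 13 of 16, was 1 without Het replicate 2 and 16 without Het replicate 1. Fasting and PPARA response genes had centred means of -0.28, 0.19 and -0.11 in the WT livers and 0.58, -0.21 and -0.16 in the Het livers. Het replicate 1 was the highest. Its level of the PPARA target Cyp4a14, named after its values were seen, was 629 CPM, against 3.66 to 64.3 CPM in the other 5 livers. Acute-phase genes, 16 of 16 below 0 with a median of -0.66, had centred means of 0.99, 1.93 and -1.03 in the WT livers and 0.67, -1.07 and -1.48 in the Het livers, and clock genes of 0.053, 0.0094 and -0.031 in the WT livers and 0.0069, -0.066 and 0.028 in the Het livers. Without WT replicate 2, 12 of the 16 acute-phase genes were below 0 with a median of -0.17, and the median was -0.97 without WT replicate 3. In these 4 lists none was called by edgeR with adjustment over all genes. Genes with an unadjusted p under 0.05 in that fit included Pdk4 (log2 fold change -0.58), which restrains pyruvate dehydrogenase, and Per1 (-0.50) and Nfil3 (0.25) of the clock. Another was Saa4 (-0.84) of the acute-phase list. Saa4 was called without WT replicate 3 (log2 fold change -1.12, adjusted p = 0.0230 in edgeR with Benjamini-Hochberg adjustment). Per1 had 46.1, 32.8 and 42.7 CPM in the WT livers and 30.9, 24.4 and 30.9 CPM in the Het livers, with every Het value below every WT value. The part of these programmes in the lipid synthesis values was not tested.

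**Figure D4:**
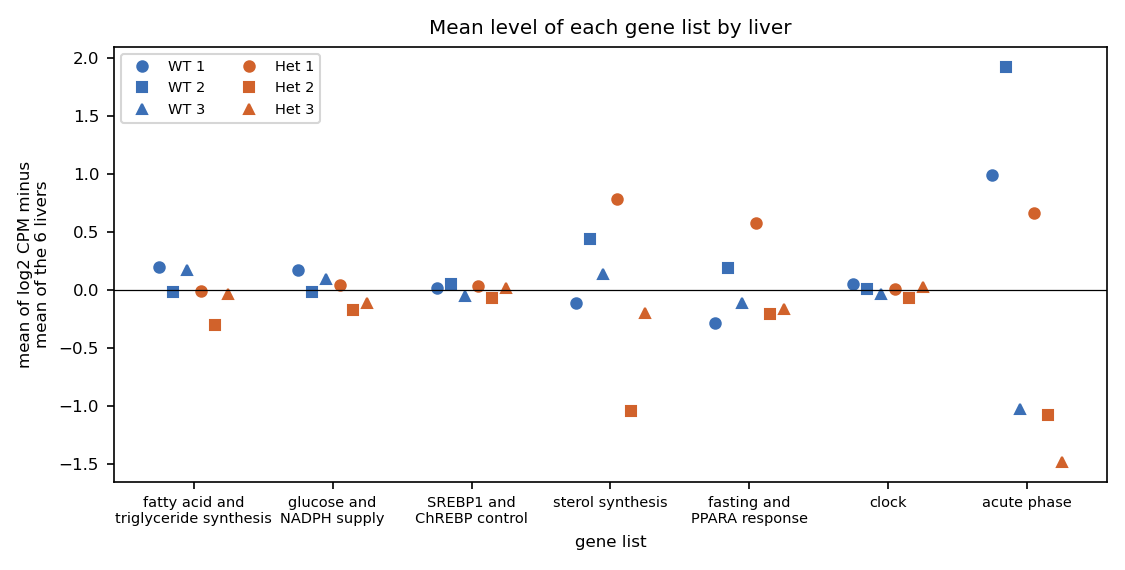
Points give, for each liver, the mean over the genes of a list of log2 CPM centred on the 6 livers, in WT (blue) and Het (orange) livers with a symbol per replicate. Het replicate 2 is the lowest liver for lipid synthesis, glucose and NADPH supply, SREBP1 and ChREBP control, sterol synthesis and the clock. For SREBP1 and ChREBP control and the clock it is only slightly below WT replicate 3 (-0.070 against -0.053, and -0.066 against -0.031). It is not the lowest for the fasting and PPARA response or the acute phase. The WT and Het ranges overlap in every list shown.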

How the data were processed

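Polyadenylated RNA was sequenced from 6 livers, 3 of each genotype, with an Illumina TruSeq kit, per the labels. The authors deposited 1 table a liver, holding unnormalised read counts for each Ensembl gene ID as whole numbers. TopHat2 2.0.11, HTSeq 0.6.1, DESeq and the genome build mm9 are named per the submitters' processing notes. Their roles, the annotation release and the strand setting are not given in the sources used here. No entry lacked a gene ID.

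Symbols were matched for 32919 IDs. Counts were fitted with edgeR 4.0.16 in R 4.3.3 (filterByExpr, TMM scaling, robust quasi-likelihood test, genotype as the only term), with Benjamini-Hochberg adjustment over 12631 genes and a threshold of 0.05. The standard error is the absolute log2 fold change over the square root of F. Gene list scores used log2 CPM with 0.5 counts added. DESeq2 1.42.0, limma-voom (limma 3.58.1), other filters and scalings, a replicate block and fits without each liver were alternatives. The fit was tested on simulated data. At the adjusted threshold it recovered 47.8% of 67 genes changed 1.5-fold, 83.6% of 67 changed 2-fold and 100% of 66 changed 4-fold. False calls were 15 of 12431 unchanged genes. No 2 libraries agreed within sampling noise.

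The 32 genes and the other lists were chosen with earlier results of these data known. Values in every liver were given for genes with an unadjusted p under 0.05, genes whose groups did not overlap, the regulators, the core enzymes and the 3 genes with the widest range. Other genes given by liver serve as examples. From the other lists, genes with an unadjusted p under 0.05 were named, except for a result that is not reported here. Promoters came from RefSeq (GRCm38.p6), with no coordinates taken from the mm9 counts.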

Additional observations from a re-analysis of the deposited data

How the results depend on the processing

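With 3 livers a genotype, the median standard error of a member's log2 fold change was 0.127. No member passed the adjusted threshold in any of the 16 alternatives. Over all genes, 0 passed in edgeR, 1 without the filter on low counts, 14 in DESeq2 and 0 to 17 when 1 liver was left out (17 without WT replicate 3, 10 without Het replicate 1). The 5 members lower at an unadjusted p under 0.05 became 8 in DESeq2 and 3 to 10 with 1 liver left out (3 without WT replicate 1, 10 without Het replicate 1). The share of all genes was 1.14% in DESeq2 (19094 genes), against 2.21% in the main fit. With 1 liver left out it was 1.13% without WT replicate 1, 3.92% without Het replicate 1 and 5.44% without WT replicate 3.

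The labels do not say whether the replicate numbers pair the livers. Deviations of same-numbered livers from their group mean correlated across genes at -0.030, -0.076 and 0.22 for replicates 1 to 3. WT replicate 3 and Het replicate 3 each correlated best with the other, and WT replicate 2 correlated best with Het replicate 1, at 0.25. With so few livers these correlations cannot decide whether the livers were paired. With the replicate block 8 members were lower at an unadjusted p under 0.05 (all genes: 2.59%, against 2.21% in the main fit).

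Leaving out 1 liver turned the sign of 11 members, and the cause was not tested. Their log2 fold changes ranged from -0.43 to 0.10 for Acss2, -0.073 to 0.097 for Dgat2, -0.035 to 0.098 for Elovl1, -0.21 to 0.95 for Elovl3, -0.068 to 0.10 for Fads1 and -0.085 to 0.062 for Fads2. They ranged from -0.15 to 0.51 for Mid1ip1, -0.035 to 0.12 for Mlxipl, -0.17 to 0.031 for Slc25a1, -0.055 to 0.25 for Srebf1 and -0.080 to 0.086 for Tecr. Ing5 ranged from -0.12 to 0.0077.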

Other observations

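Ratios within a liver, chosen after the values were seen and given without a test, compare related members of the route. The log2 ratio of Elovl6 to Elovl2 CPM was -3.39, -3.21 and -3.58 in the WT livers and -3.77, -4.42 and -4.43 in the Het livers. Both genes were chosen as non-overlapping, so the separation of this ratio follows from them. The log2 ratio of Thrsp to Mid1ip1, which encode related proteins, was 4.56, 3.60 and 3.82 in the WT livers and 3.01, 2.41 and 3.16 in the Het livers. All 3 Het ratios lay below all 3 WT ratios, although each gene alone overlapped between the genotypes. How often the ratios of other gene pairs separate in this way was not examined. The log2 ratio of Scd1 to Elovl6 was 5.82, 4.86 and 5.57 in the WT livers and 5.49, 3.51 and 4.54 in the Het livers. Het replicate 1 lay inside the WT range of that ratio. The log2 ratio of Scd1 to Fads1, desaturases of monounsaturated and polyunsaturated synthesis, was 2.42, 1.59 and 1.90 in the WT livers and 1.63, -0.47 and 0.49 in the Het livers. Het replicate 1 lay just above WT replicate 2 in this ratio, and Het replicate 2 alone had less Scd1 than Fads1 by CPM, which is not scaled by length. The log2 ratio of Dgat2 to Dgat1 was 5.13, 4.89 and 5.22 in the WT livers and 5.09, 4.96 and 5.08 in the Het livers, with the Het livers inside the WT range.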
